A study of Mus musculus with 14 samples.

Results

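A set of 518 regions of accessible chromatin was found in 3 of 4 Nfibf/f small cell lung cancer lines of the mouse, 1398M1, 1398P2 and 1399P1, and not in the fourth, 1399M4, nor in 3 RPR2 lines. The regions were chosen by their peaks. Peaks of all 14 libraries that overlapped by at least 1 bp on chromosomes 1 to 19 and X were merged, a region was called open in a line if both of its libraries had a peak there, and closed if neither had. The rule kept regions open in 1398M1, 1398P2 and 1399P1 and closed in 1399M4, 1373M1, 12N1G and N2N1G. It kept 518 of 177577 merged regions, 0.292% of them. Because the rule read these very peaks, presence in the 3 lines and absence from the 4 others are a description, and no test is attached to them.

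The assay was ATAC-seq, in which a transposase cuts and tags accessible DNA, done by the OMNI-ATAC protocol with paired-end sequencing of cells grown in DMEM with serum. The Nfibf/f lines carried RPR2;Nfibf/f, and came from a liver metastasis (1398M1), a lung tumor (1398P2), a lung tumor (1399P1) and a liver metastasis (1399M4). The RPR2 lines came from a liver metastasis (1373M1) and from lymph node metastases (12N1G and N2N1G). RPR2 is used in this field for loss of Rb1, Trp53 and Rbl2, which all 7 lines therefore share, and Nfibf/f denotes a conditional allele of Nfib. The sources used here do not give how recombination was brought about, the age of the mice or the number of passages. There were 2 libraries per line, and since no label tells whether these were separate cultures, their spread may be no more than technical. Lines 1398M1 and 1398P2 begin with the same number, and so do 1399P1 and 1399M4, and whether these pairs are independent is not known here. The 3 lines in which the regions were open mix a metastasis with 2 lung tumors, and the line that lacked them is a metastasis like 1398M1, so neither genotype nor tissue as labelled separates the 3 lines from the other 4.

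Accessible regions far from gene starts are often enhancers, short stretches bound by transcription factors that can act on genes at a distance, and they differ between cell states more than promoters do. NFIB is a transcription factor of the nuclear factor I family, and in small cell lung cancer it has been linked to metastasis and to wide changes in accessible chromatin at distal sites. Peaks show where DNA was accessible and say nothing by themselves of which gene a region acts on or whether that gene was transcribed.

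Some of the regions lie on an annotated gene start, for which sequence was at hand. RefSeq promoters, 250 bases before to 50 after each start on GRCm38.p6, were found for 13 starts covered by 13 of the 518 regions, and 6 of them are shown. These windows overlap the regions but are not the regions: 7 of the 13 lay whole inside one, and the others reached past its end, the least covered with 138 of its 300 bases inside. They are those of 5 protein-coding genes, Kcna5, Ftdc2, Them7, Calhm6 and Nedd4, and of 1 noncoding RNA, Gm26671, which holds the most kinds of motif. They were chosen after their matches were known. They are written 5′ to 3′ on the strand of the gene, in lower case, with the matches of 8 motifs in capitals. The motifs were searched on both strands and were the full nuclear factor I site (TTGGC, 5 bases of any kind, GCCAA), its partial site TTGGCA and the E-box read by NEUROD1 (CAGATG). The others were the motifs of AP-1 (TGANTCA), FOXA (TGTTTAC) and ETS factors (CCGGAAG), the GC box (GGGCGG) and the TATA box (TATAAA).

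Kcna5, a voltage-gated potassium channel, start 126535555 on the minus strand, in the region chr6:126534983-126535812.
Kcna5: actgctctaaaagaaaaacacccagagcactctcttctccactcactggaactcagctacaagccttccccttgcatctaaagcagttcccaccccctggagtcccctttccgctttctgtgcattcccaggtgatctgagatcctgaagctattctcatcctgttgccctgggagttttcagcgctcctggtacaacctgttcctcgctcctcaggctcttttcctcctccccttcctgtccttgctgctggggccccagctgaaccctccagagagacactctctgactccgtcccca
Ftdc2, start 58638403 on the minus strand, in the region chr16:58637567-58638634.
Ftdc2: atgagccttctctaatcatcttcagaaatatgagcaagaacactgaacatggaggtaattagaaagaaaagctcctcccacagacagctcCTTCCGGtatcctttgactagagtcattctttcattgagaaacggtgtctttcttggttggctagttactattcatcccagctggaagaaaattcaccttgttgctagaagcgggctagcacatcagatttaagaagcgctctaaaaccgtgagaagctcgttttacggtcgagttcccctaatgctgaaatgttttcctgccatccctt
Them7, start 105224342 on the plus strand, in the region chr2:105224176-105224879.
Them7: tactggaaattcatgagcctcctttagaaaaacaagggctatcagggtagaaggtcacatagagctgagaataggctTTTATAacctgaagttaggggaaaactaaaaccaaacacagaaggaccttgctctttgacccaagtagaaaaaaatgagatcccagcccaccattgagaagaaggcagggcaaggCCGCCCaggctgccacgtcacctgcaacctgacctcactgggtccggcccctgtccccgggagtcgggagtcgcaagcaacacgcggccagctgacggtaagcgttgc
Calhm6, of the calcium homeostasis modulator channel family, start 34127972 on the minus strand, in the region chr10:34127219-34128246.
Calhm6: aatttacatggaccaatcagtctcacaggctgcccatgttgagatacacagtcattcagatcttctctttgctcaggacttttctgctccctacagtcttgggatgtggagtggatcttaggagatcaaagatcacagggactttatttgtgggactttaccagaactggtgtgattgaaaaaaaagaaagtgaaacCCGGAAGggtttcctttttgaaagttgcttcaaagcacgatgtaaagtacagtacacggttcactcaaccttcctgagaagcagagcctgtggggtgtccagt
Nedd4, a ubiquitin ligase, start 72693298 on the plus strand, in the region chr9:72692847-72694049.
Nedd4: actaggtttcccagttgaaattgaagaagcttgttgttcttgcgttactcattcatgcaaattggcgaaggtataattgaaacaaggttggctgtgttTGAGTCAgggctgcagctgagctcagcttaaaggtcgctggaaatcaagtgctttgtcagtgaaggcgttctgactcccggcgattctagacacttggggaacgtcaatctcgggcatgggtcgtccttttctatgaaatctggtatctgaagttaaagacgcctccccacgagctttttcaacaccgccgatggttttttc
Gm26671, start 57627357 on the minus strand, in the region chr3:57626952-57627740.
Gm26671: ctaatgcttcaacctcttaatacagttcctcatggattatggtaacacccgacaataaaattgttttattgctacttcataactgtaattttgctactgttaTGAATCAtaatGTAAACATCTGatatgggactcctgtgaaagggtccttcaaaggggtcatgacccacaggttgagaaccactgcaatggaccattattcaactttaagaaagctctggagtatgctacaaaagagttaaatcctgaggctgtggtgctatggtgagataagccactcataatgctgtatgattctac

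The capitals show an ETS match in Ftdc2 and in Calhm6, a TATA box and a GC box in Them7 and an AP-1 match in Nedd4. The start shown for Nedd4 lies inside that gene (72662331 to 72749851) and not at either of its ends. Gm26671 holds an AP-1 match and, farther on, a FOXA match whose last letters overlap a CAGATG match, both of them on the strand not written, while Kcna5 has no match. Of 16 matches in the 13 promoters, 13 lay inside the region and 3 past its ends, namely the TATA box of Them7 by 7 bp, the partial nuclear factor I site of Gm42089 by 8 bp and the CAGATG of 1700001L19Rik by 80 bp. CAGATG stood in 4 of the 13 promoters (30.8%), beside 17.1% of all 32619 promoters of the table, and TGANTCA in 2 (15.4%), beside 7.85%. CCGGAAG stood in 2 (15.4%), beside 8.92%, TATAAA in 2 (15.4%), beside 13.7%, and TGTTTAC in 1 (7.69%), beside 3.67%. GGGCGG stood in 2 (15.4%), beside 35.9%. The partial nuclear factor I site was in 1 promoter, that of the noncoding RNA Gm42089 (7.69%), beside 14.1%, and the full site in 0, beside 0.0368%. With 13 promoters a single match moves a share by 7.69 percentage points, and no difference from all promoters was tested. The 13 promoters had a median GC content of 47.3%, against 53% over all, and a median of 5 CpG, against 7. Gm42365 lay at the top of both measures with 66% GC and 16 CpG, and Gm26671 at the bottom with 38.7% and 1.

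How the rule cut the set out of its neighbours shows which lines bound it. Of 1446 regions open in 1398M1, 1398P2 and 1399P1 and closed in all 3 RPR2 lines, 518 (35.8%) had no peak in 1399M4, 165 (11.4%) had a peak in 1 of its libraries and 763 (52.8%) in both. The regions that 1399M4 lacked were thus fewer than those it shared. Leaving out 1 Nfibf/f line at a time, the regions open in the other 3 and closed in all remaining lines numbered 518 without 1399M4, 674 without 1398M1, 110 without 1398P2 and 13 without 1399P1. Regions shared by 1398P2, 1399P1 and 1399M4 alone (674, 0.38% of all) were therefore more numerous than those described here, and a set of this size is not particular to 1399M4. Of 2112 regions open in the 3 lines and closed in 1399M4, 518 (24.5%) were closed in all RPR2 lines and 771 (36.5%) were open in all of them. A further 187 (8.85%) were open in both lymph node lines and closed in 1373M1, 171 (8.10%) the reverse, and 465 (22.0%) had another state.

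The threshold of the rule fell heavily on 1 library. Regions with a peak in 5 of the 6 libraries of the 3 lines and in 0 of the 8 others, just outside the rule, numbered 1068. The missing peak was in replicate 2 of 1398P2 in 864 of them, in replicate 1 of 1398P2 in 1, in replicates 1 and 2 of 1398M1 in 81 and 42, and in replicates 1 and 2 of 1399P1 in 27 and 53. Regions with a peak in all 6 and in 1 of the 8 others numbered 283. The extra peak was in replicate 1 of 1399M4 in 116 and in replicate 2 in 49, and each of the 6 RPR2 libraries accounted for 9 to 36. Replicate 2 of 1398P2 held 33519 peaks, against 64975 to 84199 in the other 13 libraries, and its background depth of 0.507 per bp was the lowest of all, the highest being 1.134. Without that library the rule kept 1382 regions, among them all 518, so the 518 are those that also had a peak in the shallowest library. With every library cut to the same number of peaks, the rule kept 422 regions, and 81 of the 518 overlapped one of them. Beyond these counts the part of depth in what the 518 share was not tested.

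**Figure D1:**
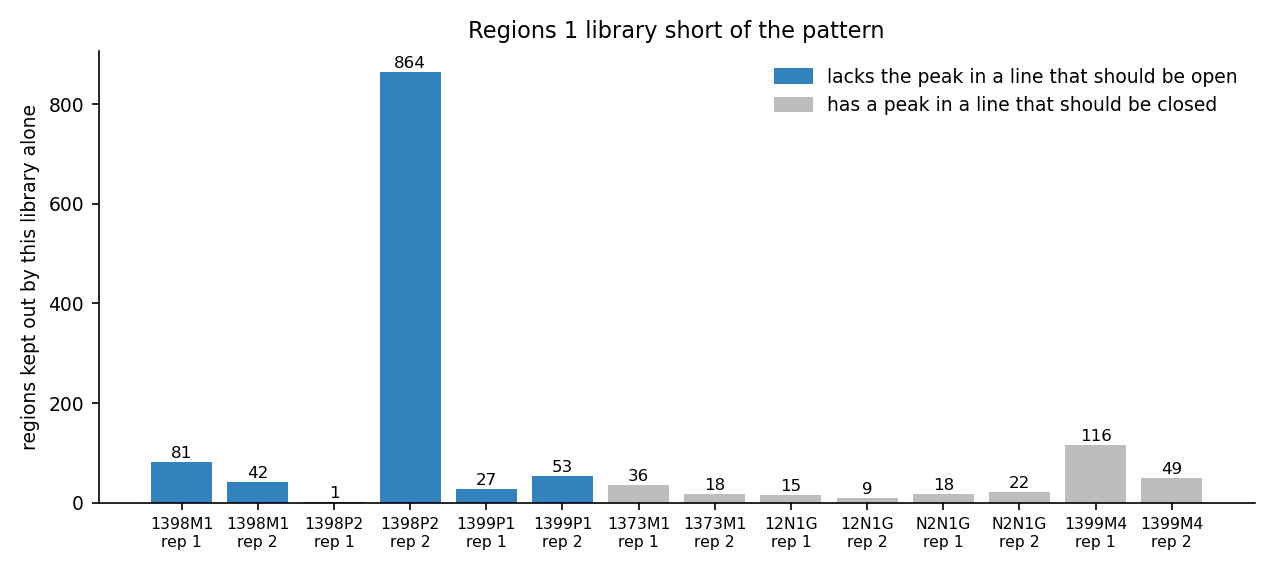
Number of regions kept out by a single library (vertical axis) for each of the 14 libraries (horizontal axis), blue where that library lacked a peak in 1398M1, 1398P2 or 1399P1 and gray where it had one in 1373M1, 12N1G, N2N1G or 1399M4. Replicate 2 of 1398P2 stands at 864, and the next highest bar is replicate 1 of 1399M4 at 116.

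Within the libraries that had them, the 518 regions were of middling strength. Strength was read as the rank percentile of the fold enrichment that the authors deposited for each summit, the share of the peaks of the same library with a lower value, since that fold enrichment is not on a common scale between lists. The median rank was 49.1 and 55.6 in the libraries of 1398M1, 75.7 and 40.2 in those of 1398P2 and 58.9 and 54.5 in those of 1399P1. All 24887 regions open in the 3 lines, whatever their state elsewhere, had medians of 75.9 and 78.3 in 1398M1, 78.2 and 59.4 in 1398P2 and 80.3 and 80.2 in 1399P1. The 518 regions ranked below that set in each of the 6 libraries, least so in replicate 1 of 1398P2. The 763 regions open in all 4 Nfibf/f lines had medians of 44.9, 47.8, 75.6, 47.5, 71.3 and 68.7 in the same order of libraries. The line means of the 2 library medians were 52.4 ± 4.62 in 1398M1, 58.0 ± 25.1 in 1398P2 and 56.7 ± 3.16 in 1399P1 (SD, n = 2 libraries), so the lines did not differ beyond the spread within 1398P2.

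The pileup at a summit, the number of overlapping reads or fragments, was solved from the deposited fold enrichment and p-value. Its median over the 518 regions was 17 and 22 in 1398M1, 45 and 9 in 1398P2 and 22 and 18 in 1399P1. Replicate 1 of 1398P2 was the highest and replicate 2 the lowest, and the 2 libraries of that line lay on opposite sides of all others. Over all solved summits the same 2 libraries were also highest and lowest, with median pileups of 28 and 12, so this order is not particular to the 518. A region had its highest rank in replicate 1 of 1398P2 in 271 cases and its lowest in replicate 2 of 1398P2 in 220. By the mean of the 2 libraries, 156 regions (30.1%) ranked highest in 1398M1, 181 (34.9%) in 1398P2 and 181 (34.9%) in 1399P1. Of the 518, 72 (13.9%) ranked above 50 in all 6 libraries. A -log10 q under 3 in at least 1 library was found for 141 regions (27.2%), and for 50 (9.65%) with replicate 2 of 1398P2 set aside, which alone gave 105.

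**Figure D2:**
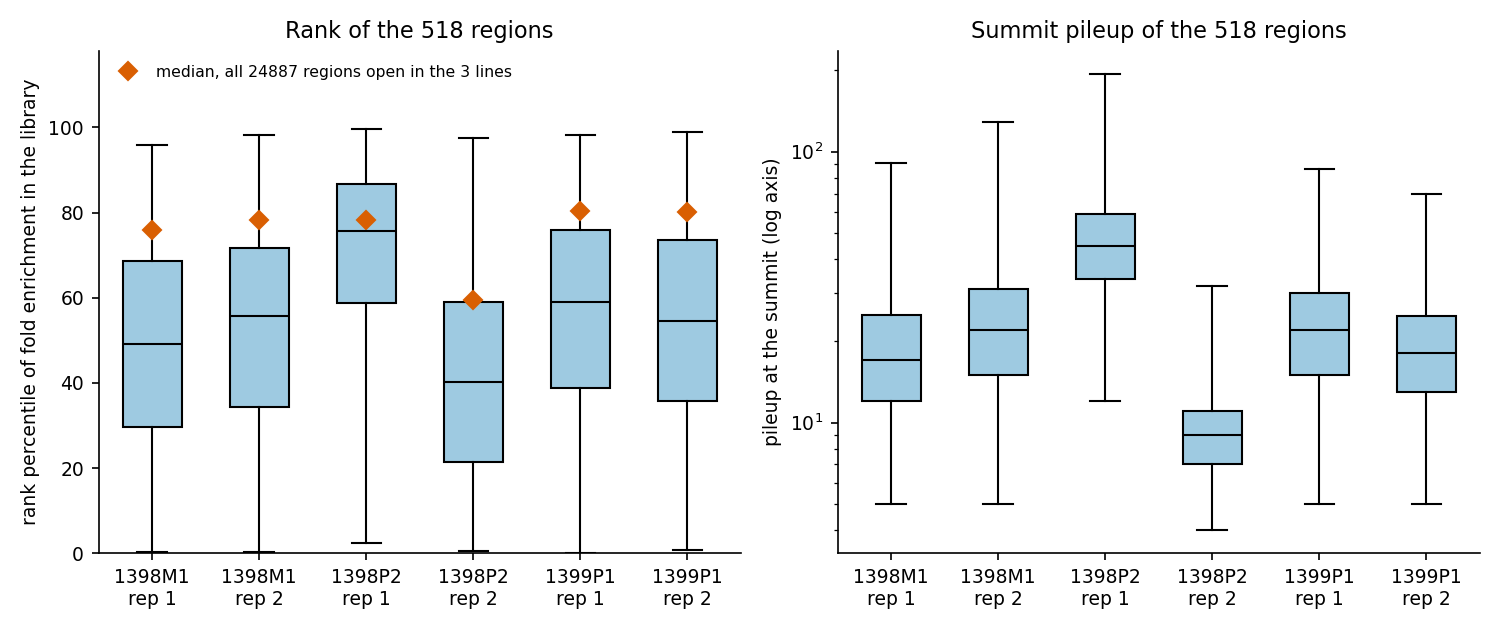
Left, rank percentile of the deposited fold enrichment of the 518 regions in each of the 6 libraries; right, pileup at the summit on a log axis. Boxes span the quartiles with the median as a line, whiskers run to the lowest and highest region, and orange diamonds mark the median of all 24887 regions open in the 3 lines, which lies above the median of the 518 in all 6 libraries.

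Ranks of the regions ran together most within 1398M1 and within 1399P1, and less within 1398P2 than between its replicate 1 and 1399P1. As a description over the 518 regions, which share libraries and depth, Spearman's rho of the ranks between the 2 libraries of a line was 0.76 in 1398M1, 0.75 in 1399P1 and 0.30 in 1398P2. Between libraries of different lines it ran between 0.16 and 0.59 over 12 pairs, with a median of 0.39. The highest value between lines joined replicate 1 of 1398P2 and replicate 1 of 1399P1, both lung tumor lines. With the libraries of 1399P1, replicate 1 of 1398P2 had 0.59 and 0.51, and replicate 2 of 1398P2 had 0.35 and 0.26. The high values between the lung tumor lines thus came from replicate 1 of 1398P2 alone. The 4 values between the libraries of 1398M1 and those of 1398P2, which have the same number, were 0.41, 0.41, 0.17 and 0.16, and those between 1398M1 and 1399P1 were 0.46, 0.43, 0.38 and 0.35.

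At the median the regions were wider than all merged regions together and narrower than those open in all 7 lines. Their median width after merging was 689.5 bp (292 to 1743), against 469 bp over all merged regions, 780 bp for those open in all 4 Nfibf/f lines and 1119 bp for those open in all 7 lines. A merged width can grow with the number of libraries that had a peak, which the rule for each set fixed. This order of widths is therefore not independent of the rule. The 6 summits of a region lay within a median of 93 bp, within 150 bp in 385 regions (74.3%), and more than 500 bp apart in 22 (4.25%).

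Most of the 518 lay away from gene ends. Since the annotation used gives no strand or exons, a gene end stands for either end of a gene, and no exon, intron or UTR is assigned. Of the 518, 60 lay within 1 kb of a gene end (11.6%, 95% Wilson interval 9.11 to 14.6). The share was 14.02% for regions open in all 4 Nfibf/f lines, 15.4% for those of 1399M4, 1398P2 and 1399P1 alone, 48.8% for all regions open in the 3 lines, 61.3% for those open in all 7 and 16.4% over all merged regions. The 3 sets bounded by line thus had shares of 11.6% to 15.4%, near that of all merged regions and far below that of regions shared with other lines. The midpoint lay inside a gene for 344 (66.4%, 62.2 to 70.3), against 72.1% for regions open in all 4 Nfibf/f lines, 73.3% for all regions open in the 3 lines and 61.9% over all merged regions. The median distance to a gene end was 12983.5 bp, against 10008 bp for regions open in all 4 Nfibf/f lines and 7294 bp for those of 1399M4, 1398P2 and 1399P1 alone. More than 50 kb from any gene end lay 92 regions (17.8%), against 10.2% and 6.53% in those sets and 14.4% over all merged regions. These intervals cover counting error only, and neighbouring regions are not independent.

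**Figure D3:**
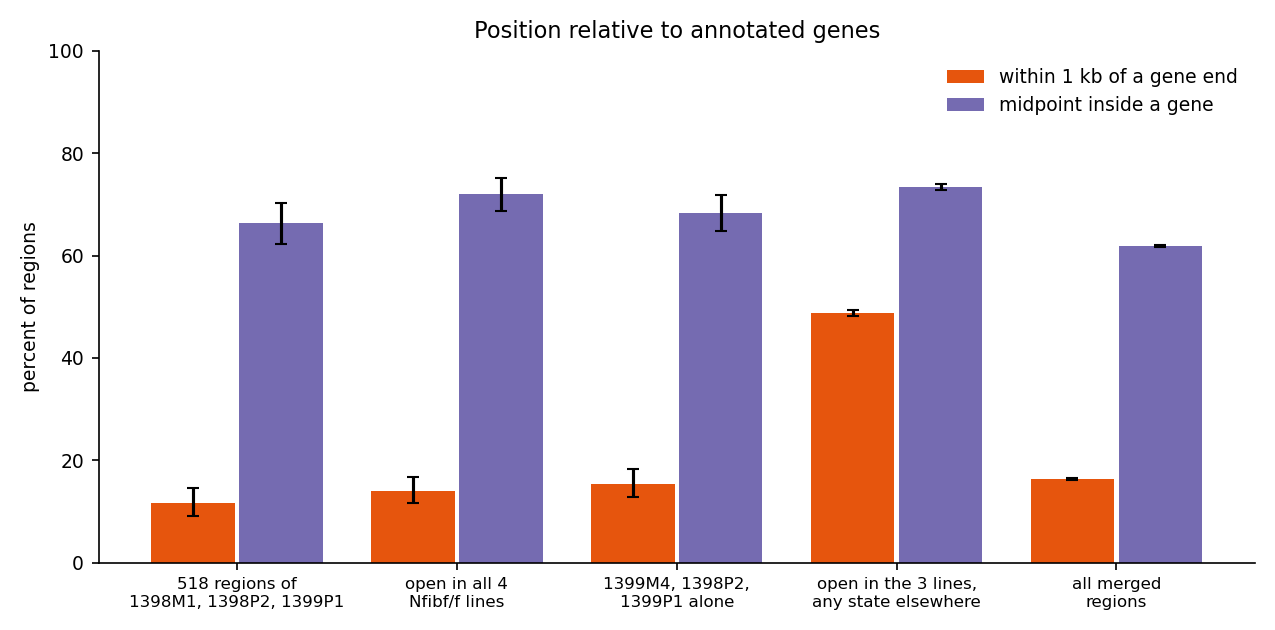
Percent of regions (vertical axis) within 1 kb of a gene end (orange) and with the midpoint inside a gene (purple), for the 518 regions, 3 sets compared with them and all merged regions; bars carry 95% Wilson intervals. The 518 have 11.6% at a gene end, against 48.8% of all regions open in the same 3 lines.

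On chromosomes the regions were spread thinly. Per 1000 merged regions they numbered 2.92 over all chromosomes, most on chromosome 12 (4.58, 35 regions), chromosome 7 (4.04, 42), chromosome 9 (3.95, 37) and chromosome 2 (3.53, 50), and fewest on chromosome 4 (1.98, 25). Chromosome X held 9. The median gap between neighbours was 2.70 Mb, and 12 gaps were within 50 kb. The 518 fell in 441 bins of 1 Mb, of which 373 held 1 region and 8 held 3 or more.

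**Figure D4:**
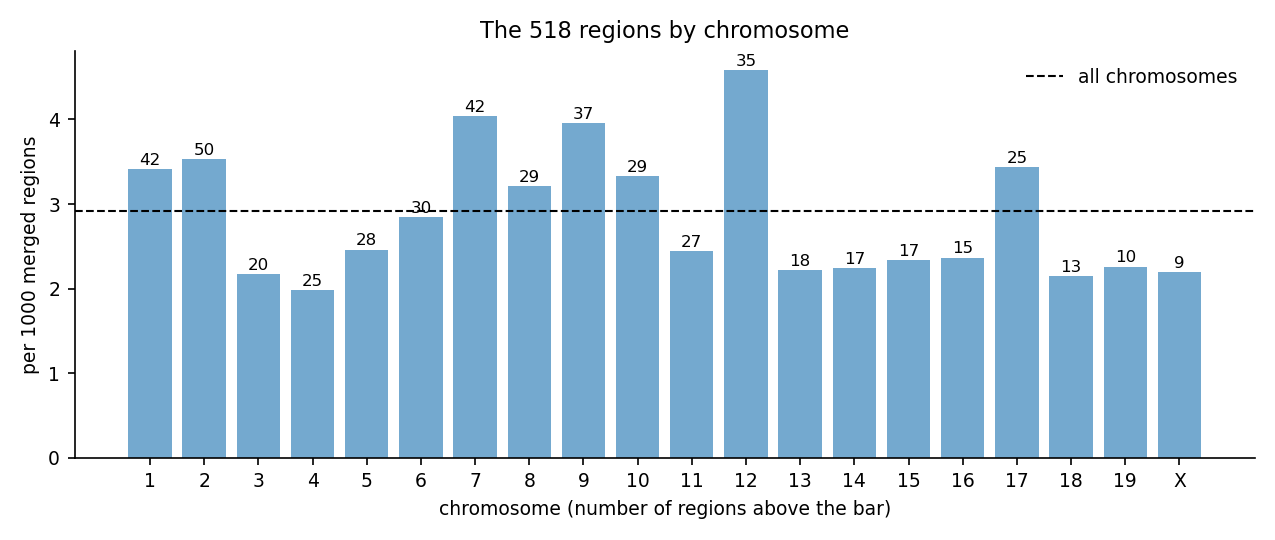
Number of the 518 regions per 1000 merged regions (vertical axis) on each chromosome (horizontal axis), with the number of regions above each bar and the value over all chromosomes, 2.92, as a dashed line. Chromosome 12 stands highest at 4.58 and chromosome 4 lowest at 1.98.

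The fullest bin, on chromosome 9 between 109 and 110 Mb, held 4 of them beside Fbxw20, Fbxw28, Fbxw23 and Fbxw24, F-box and WD-repeat genes of a local family. Beside these 4, 1398M1, 1398P2 and 1399P1 had 31, 16 and 32 other open regions in the bin, against 17 in 1399M4, 17 in 1373M1, 20 in 12N1G and 18 in N2N1G. 1398M1 and 1399P1 had more there than any of the 4 lines without the regions, and 1398P2 had fewer than each of them. The bin on chromosome 7 between 40 and 41 Mb held 3 regions beside Gm33989 and Vstm2b and had 10, 1 and 2 others in 1398M1, 1398P2 and 1399P1, against 1 in 1399M4, 1 in 1373M1, 0 in 12N1G and 1 in N2N1G. The bin on chromosome 12 between 9 and 10 Mb held 3 beside Osr1, a zinc finger factor of kidney and mesoderm development, and had 20, 5 and 20 others, against 9, 5, 15 and 16 in the same order. In both bins 1398M1 and 1399P1 were above each of the 4 lines and 1398P2 was not, though on chromosome 7 only 1398M1 had more than 2. On chromosome 7 between 83 and 84 Mb, beside Tmc3 and Il16, 1398M1, 1398P2 and 1399P1 had 24, 13 and 37 others beside the 3, against 22, 21, 25 and 25. The other 4 bins with 3 lay beside Atf3 and Ints7 on chromosome 1, Aldh1l2 and Appl2 on chromosome 10, Sorbs2 and Pdlim3 on chromosome 8 and Mtm1 and Vma21 on chromosome X. In each of these 4 and in the bin at Tmc3, at least 1 of the 4 lines without the regions had as many other open regions as 1398M1 or more.

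Most of the 518 had other open regions nearby in every line. None within 50 kb was found for 9.27% of them in 1398M1, 25.9% in 1398P2 and 6.56% in 1399P1, against 14.7% in 1399M4, 18.5% in 1373M1, 10.4% in 12N1G and 9.85% in N2N1G. Within 50 kb of a region, 1398M1, 1398P2 and 1399P1 had a mean of 3.37, 1.72 and 3.79 other open regions, against 3.26 in 1399M4, 3.15 in 1373M1, 3.26 in 12N1G and 3.21 in N2N1G. Per 10000 open regions of the line these were 0.577, 0.594 and 0.571, against 0.541, 0.548, 0.550 and 0.547. On that scale each of the 3 lines was above each of the 4 others, though by mean number 1398P2 was the lowest of all. Other open regions, here and in the bins above, can include some that missed the rule by 1 library. Their counts are therefore not independent of the rule. No peak within 250 kb was found for 0 regions in 1398M1, 1 in 1398P2 and 0 in 1399P1, against 10 in 1373M1, 4 in N2N1G, 2 in 12N1G and 2 in 1399M4.

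The strongest of the 518 lay inside Erc1, a scaffold protein of the presynaptic active zone and of vesicle docking, at chr6:119745404-119745905 (GRCm38). Its pileups were 45 and 66 in 1398M1, 64 and 16 in 1398P2 and 59 and 41 in 1399P1, and its mean rank was 94.99. Its lowest rank in any of the 6 libraries was 88.2, and the 6 summits lay within 111 bp. The next was inside Mef2a, a transcription factor of muscle and neurons, at chr7:67309855-67310703, with pileups of 25 and 34 in 1398M1, 87 and 17 in 1398P2 and 38 and 37 in 1399P1 and a mean rank of 92.4. The third, at chr7:40010172-40010796, lay outside any gene in the chromosome 7 bin above, with pileups of 31 and 47, 59 and 14, and 26 and 30 in the same order of lines and a mean rank of 90.1. These 3 were high in all 3 lines, and replicate 2 of 1398P2 had the lowest pileup in each.

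At chr1:64208713-64209477, inside the noncoding RNA Gm35880 and 86368 bp from Klf7, a Krüppel-like factor of neuron growth, pileups were 29 and 20 in 1398M1, 130 and 21 in 1398P2 and 54 and 32 in 1399P1. At chr7:142639942-142640709, 10059 bp from the growth factor gene Igf2, they were 52 and 70, 109 and 24, and 35 and 33 in the same order of lines. By pileup, which is not scaled for depth, the Klf7 neighbour was highest in replicate 1 of 1398P2 and the Igf2 neighbour was higher in 1398M1 than in 1399P1. By rank the Klf7 neighbour was highest in replicate 1 of 1399P1 (98.2, against 96.1 in replicate 1 of 1398P2). It was lowest in replicate 2 of 1398M1 by both measures. Ranks of the Igf2 neighbour were closer, 89.2 and 84.4 in 1398M1 against 84.4 and 84.0 in 1399P1. Mean ranks were 90.0 and 88.7. The other members of the 10 highest lay inside Uvrag (88.4), an autophagy gene, Slk (87.9), a kinase, Tmf1 (87.7), a Golgi protein, and Galntl6 (87.6), of the family of enzymes that start O-linked glycans, and at chr17:63008142-63009235, 36714 bp from Fbxl17 (87.8).

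At protein-coding genes, taken with 10 kb on each side, 375 of 21631 genes held at least 1 of the 518 (1.73%), and 14 held 2. The genes with a region had a median length of 88.2 kb, against 17.3 kb over all, and the 14 with 2 had a median of 479 kb (105 to 1185), so the genes with more regions were also longer. Of the 375, 27 also held a region open in all 4 Nfibf/f lines, as did 642 of all 21631 genes. This overlap was not adjusted for gene length and was not tested. Ranked instead by regions per length, the 20 highest shared 0 with the 20 highest by number, and the longest of those 20 was 4.32 kb.

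The 14 genes with 2 of the regions have unlike roles, and which genes hold 2 depended on the settings: 1 of the 14, Erc1, kept 2 when peaks had to cover at least 50% of the region, and 0 did with equal numbers of peaks. Erc1, Grip1 and Vps50 encode a scaffold of the active zone, a scaffold that binds glutamate receptors and a subunit of a complex for endosomal recycling. Asic2, Piezo2 and Ryr2 encode channels, for protons, for mechanical force and for the release of stored calcium. Plxna4 encodes a receptor for semaphorins in axon guidance, Cdh13 a cadherin held to the membrane by a lipid anchor, and Ptk2 the focal adhesion kinase. Prkce encodes a protein kinase C, Inpp4b a phosphatase of membrane phosphoinositides, Cpne4 a copine that binds phospholipids with calcium, Chst8 a sulfotransferase and Tmem132d a transmembrane protein. These roles are background, and no share of genes by role was tested.

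Whether the rest of such a gene followed the 2 regions was read from its other open regions, which the rule did not keep. Some of these missed the rule only for want of a peak in replicate 2 of 1398P2. Without that library Cpne4 held 3 regions of the pattern, Tmem132d 4 and Ryr2 3, so the counts of other regions are not independent of the rule. Cpne4 (chromosome 9, 104566701 to 105034544) had 5, 3 and 9 others in 1398M1, 1398P2 and 1399P1, against 1 in 1399M4, 0 in 1373M1, 3 in 12N1G and 2 in N2N1G. Tmem132d (chromosome 5, 127783491 to 128433077) had 19, 7 and 18, against 7, 1, 12 and 12 in the same order, and a gene-end peak in 6 of 6 libraries of the 3 lines and 2 of 8 of the others. Ryr2 (chromosome 13, 11553099 to 12106945) had 18, 7 and 19, against 10, 5, 9 and 8. In these 3 genes 1398M1 and 1399P1 were both above all 4 other lines, while 1398P2, the line with the fewest open regions (28947, against 57493 to 66396 in the other 6), was not above all 4 in any but reached or passed some of them.

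At the other genes the surroundings did not separate the lines. Erc1 had 8, 5 and 10 other open regions in 1398M1, 1398P2 and 1399P1, against 8, 7, 8 and 10 in 1399M4, 1373M1, 12N1G and N2N1G, and a gene-end peak in all 14 libraries. Cdh13, the longest of them at 1185 kb, had 36, 15 and 47, against 35, 38, 35 and 37. Inpp4b had 7, 3 and 7, against 5, 0, 9 and 8, with no gene-end peak in either library of 1373M1. Of the 20 genes ranked highest by number of regions, which are these 14 with Mef2a, Uvrag, Slk, Tmf1, Galntl6 and Trpm3, Cpne4, Tmem132d and Ryr2 alone had more in both 1398M1 and 1399P1 than in each of the 4 other lines, and 0 had fewer in both. How many of all protein-coding genes had more in both was not counted, so these 3 are named as a description only. A gene-end peak was present in all 14 libraries at 11 of the 20.

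**Figure D5:**
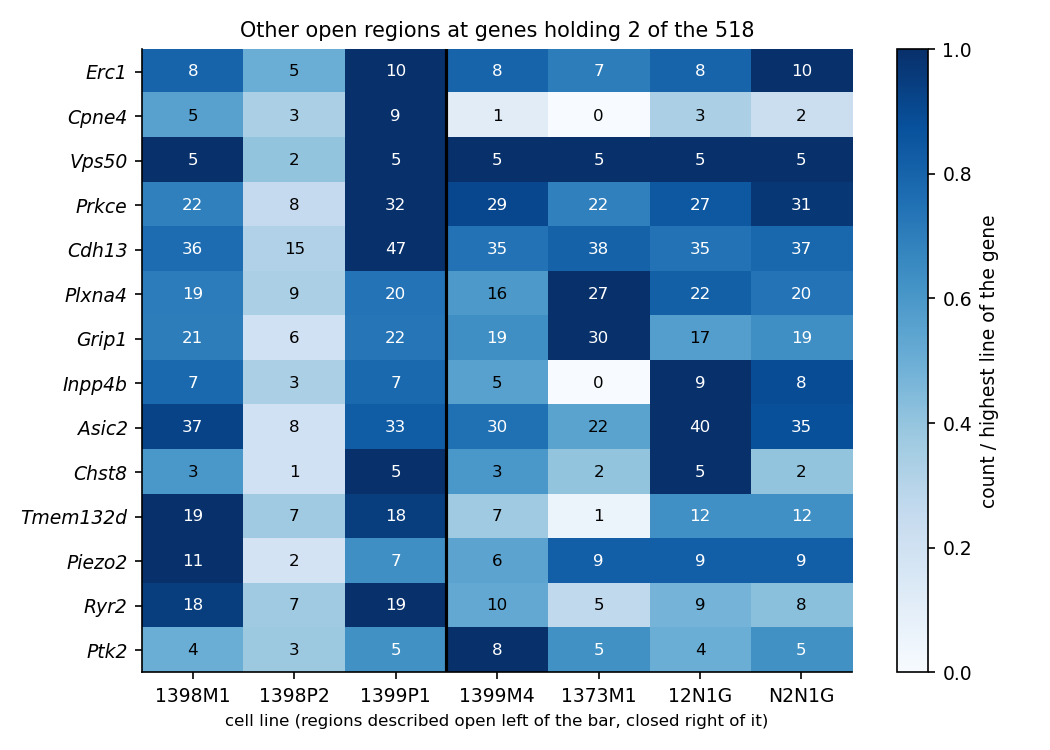
Number of open regions other than the 518 (printed in each cell) at the 14 genes that hold 2 of the 518, by cell line; color is the count over the highest line of that gene, and the bar separates the 3 lines with the regions (left) from the 4 without (right). Cpne4, Tmem132d and Ryr2 have higher counts in 1398M1 and 1399P1 than in any line right of the bar.

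The 2 regions of a gene did not always rank alike. Both Cpne4 regions, chr9:104975745-104976604 and chr9:105021568-105022155, lay toward the end of the gene with the higher coordinate and had mean ranks of 62.2 and 79.6. Pileups at the second were 17 and 22 in 1398M1, 59 and 10 in 1398P2 and 30 and 21 in 1399P1. The Erc1 pair, the strongest region named above and chr6:119837141-119837518, had mean ranks of 94.99 and 54.4. At the second, pileups of 10 and 9 in 1398M1 were lower than 32 and 19 in 1399P1. In Chst8, chr7:34774320-34775562 had pileups of 7 and 5 in 1398M1, 150 and 20 in 1398P2 and 39 and 31 in 1399P1. That region was thus near the lowest callable pileup in the metastasis line and higher in all 4 libraries of the lung tumor lines. In Grip1, chr10:119670522-119671144 had 24 and 27 in 1398M1, 26 and 7 in 1398P2 and 9 and 8 in 1399P1, and here 1398M1 was above 1399P1. In Piezo2 the 2 regions, chr18:63318991-63320285 and chr18:63382974-63383325, had mean ranks of 70.8 and 18.02, although pileups at the second were 25 and 33, 74 and 14, and 29 and 25.

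The 60 regions at gene ends stood beside protein-coding genes in 26 cases and long noncoding RNAs in 27, with 3 pseudogenes, 2 small nucleolar RNAs, 1 small nuclear RNA and 1 transcribed pseudogene making up the rest. At Cxcr2, a chemokine receptor of neutrophils (chr1:74160110-74160465, 781 bp inside the gene), pileups were 16 and 12 in 1398M1, 36 and 9 in 1398P2 and 17 and 23 in 1399P1. At Tlr4, the receptor for lipopolysaccharide (chr4:66827309-66828237), they were 9 and 10, 55 and 6, and 30 and 21. Both genes had no other open region in 1398M1, 1398P2 or 1399P1, and Cxcr2 had none in any line.

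At Hnmt, which inactivates histamine (chr2:24048463-24049097), pileups were 14 and 20 in 1398M1, 32 and 10 in 1398P2 and 18 and 21 in 1399P1. At Kcna5, whose promoter is shown above, they were 41 and 48, 17 and 5, and 34 and 23. Kcna5 was thus highest in 1398M1 and just callable in replicate 2 of 1398P2. At Calhm6 they were 20 and 35, 47 and 8, and 6 and 13, lowest in replicate 1 of 1399P1. At Them7 they were 14 and 11, 37 and 6, and 12 and 18, and at Ftdc2 10 and 18, 34 and 9, and 9 and 11. At Lpin2, a phosphatidate phosphatase (chr17:71248572-71249435), they were 44 and 68, 85 and 11, and 42 and 30, but the gene had an end peak in all 14 libraries, at another region.

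A region of 983 bp at chr11:70614905-70615887 lay where the ends of Mink1, a kinase, Chrne, a subunit of the muscle acetylcholine receptor, and 4930544D05Rik meet. Its pileups were 24 and 25 in 1398M1, 60 and 9 in 1398P2 and 53 and 35 in 1399P1, and it cannot be given to any of the 3 genes. Fbxw20 (chr9:109217101-109217754) had 9 and 12, 90 and 20, and 51 and 33, and Fbxw24 (chr9:109600897-109601488) had 37 and 37, 51 and 12, and 15 and 17. The 2 differed in order, with 1398P2 and 1399P1 above 1398M1 at Fbxw20 and replicates of 1398M1 above those of 1399P1 at Fbxw24. Fbxw20, Fbxw24, Olfr978, Klk1b3 and Tgtp2 belong to families of near copies, between which reads can be split, and their values are uncertain for that reason.

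For the 458 regions away from gene ends, the nearest protein-coding gene was most often open at an end in all 7 lines. The 458 had 429 nearest genes. An end was open in all 7 lines at 251 of them (58.5%), against 51.4% of all 21631 protein-coding genes, and in none at 80 (18.6%), against 29%. It was open in 1398M1, 1398P2 and 1399P1 and not open in any other line at 2 (0.466%), against 34 of all genes (0.157%). A peak in 1 library of a line did not count as open. The 2 were Tmem132d, which holds its regions, and Serpinb8, a serine protease inhibitor 105294 bp from its region. Tmem132d also had an end peak in replicate 1 of 12N1G and in replicate 2 of N2N1G. By line, an end was open at 75.3%, 65.0% and 78.1% of the 429 in 1398M1, 1398P2 and 1399P1, against 72.7% in 1399M4, 70.2% in 1373M1, 76.0% in 12N1G and 75.5% in N2N1G. No miRNA hairpin overlapped a region, and 3 lay within 10 kb, Mir6392 at 2764 bp, Mir148b at 4207 bp and Mir6935 at 6117 bp. Mir148b is the neighbour of the region on the start of the noncoding RNA Gm41406.

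Lists of genes tied to this cancer and its model were then read for the regions. Of 178 listed genes 4 held at least 1 (2.25%), beside 1.73% of all protein-coding genes, so the share was near the background. They were Jag1, a ligand of NOTCH (1 of 16 genes of the NOTCH and YAP list), Plxna4 (1 of 24 genes of axon guidance and neuronal migration), Cdh13 (1 of 19 genes of adhesion and epithelial-mesenchymal state) and Epc2, of a histone acetyltransferase complex (1 of 10 histone modifiers). The region beside Jag1, at chr2:137125403-137125926 and 8883 bp outside the gene, had pileups of 11 and 11 in 1398M1, 43 and 12 in 1398P2 and 9 and 8 in 1399P1. That beside Epc2, at chr2:49557869-49558817 and 5922 bp outside, had 20 and 26, 58 and 11, and 24 and 22. The Epc2 region was even between lines (mean rank 60.4), and the Jag1 region was highest in 1398P2 (mean rank 44.3).

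No region of the set lay at the 4 NFI genes, including Nfib, nor at the targeted genes Rb1, Trp53 and Rbl2. The same was true of the 18 neuroendocrine genes, the 3 MYC genes, the 8 tuft-like genes, the 18 genes of synapses and channels, the 10 WNT genes and the 4 shedding genes. Of markers of other cell types, 0 of 12 hepatocyte genes, 0 of 9 lung epithelial, 0 of 10 lymphocyte and myeloid and 0 of 10 fibroblast and endothelial genes held a region. Since 1.73% of all protein-coding genes held a region, a count of 0 in lists this short is near the background. It sets none of these lists apart. Without replicate 2 of 1398P2, 17 of the 178 held 1, beside 869 of all 21631 protein-coding genes (4.02%), among them Sox2 of the neuroendocrine and Dclk1 of the tuft-like genes. The lists on which no region fell thus depended on that library, while the NFI, targeted, MYC, WNT, shedding and cell type marker lists held 0 either way.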

How the data were processed

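ATAC-seq of 7 mouse lines with 2 libraries each was read from narrowPeak files, 1 per library. The builds mm10 and GRCm38 are named in the submitters' processing notes, with the tools MACS2, SAMtools, Picard, Bowtie2 and cutadapt 2.10. For their roles, settings and any shift of reads, nothing is given in the sources used here. Each summit carries a fold enrichment (a ratio), a -log10 p-value, a -log10 q-value and a score, all deposited by the authors. The lowest -log10 q in every library was 1.3, a q of 0.05. The deposited score was not used. The files hold peaks and no read totals, and absence of a peak is absence at the depth of that library.

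Pileup and local background at 1192085 summits with a -log10 p under 250 were solved from the fold enrichment and p-value, as MACS2 computes them with a Poisson distribution. Whole pileups, within 0.02, were found for 100%. Where a first search gave no whole value, whole pileups were tried directly and kept if they returned the p-value, so this share is in part set by the procedure. Local background under 0.5 per bp was not searched. Depth was measured as the minimum of local background in a library (0.507 to 1.134 per bp). Depth sets which weak peaks can be called.

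Regions were merged and called as the report says, in Python 3.11.15 with numpy 2.4.6, pandas 2.3.3, scipy 1.17.1 and matplotlib 3.10.9. The steps were tested on simulated data. Gene extents and promoters came from RefSeq tables of GRCm38.p6, and a protein-coding gene received regions within 10 kb. The line was the unit, and no comparison carries a test, since the peaks that chose the regions are those compared. Motifs were not read at summits, as no genome was used here.

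Named genes are the 20 protein-coding genes with the most regions (ties by summed mean rank), the 10 regions of highest mean rank, up to 25 genes with a region within 1 kb of an end, and listed genes with a region. The regions and lists were chosen with earlier results of these data known. Alternatives varied the overlap, the q-value, the summit, equal numbers of peaks, raised background, each library and line, the replicate number and the reach around genes.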

Additional observations from a re-analysis of the deposited data

Results flagged for a closer look

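In groups of 4 to 10 libraries, a library was singled out if its gap to the nearest other library took more of the group's range than Dixon's 95% critical value, which chance gives for about 1 in 20 groups. Of 8 measures examined, 5 had such a library, and 4 of these came from line 1398P2. Among the 6 libraries of 1398M1, 1398P2 and 1399P1, replicate 2 of 1398P2 had the fewest peaks, 33519. The same library had the most of the 518 regions with a -log10 q under 3, 105, and was the missing library for 864 regions with a peak in the other 5 libraries and in none of the 8 others. Replicate 1 of 1398P2 had the highest median pileup at the summits of the 518, 45. Among the 8 libraries of the 4 lines without the regions, replicate 1 of 1399M4 was alone in having a peak at 116 regions that otherwise met the rule. These values share libraries and are not independent of each other, and their causes were not tested.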

How the results depend on the processing

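The number of regions, 518, moved under several settings. It was 222 with peaks covering at least 50% of the region (125 of the 518 remained), 64 without bins of raised median background, 2474 from replicate 1 and 937 from replicate 2 of every line alone, and 980, 1576 and 1446 with no condition on 1398M1, 1398P2 and 1399M4. Leaving out 1 library gave 519 to 1382, the highest without replicate 2 of 1398P2. Equal numbers of peaks gave 422, sharing 81 with the 518. The share within 1 kb of a gene end was 4.69% without the raised bins, 26.6% within 5 kb and 5.02% for protein-coding genes alone, and the share inside a gene 50%, 61.5% (replicate 1 alone) and 59.1% (protein-coding). The median rank in 1398P2 was 62.4 (50% cover), 52.3 and 37.9 (replicates 1 and 2 alone) and 39.9 to 60.1 without 1 library. The order of the 3 lines changed under several settings. Among them were 50% cover, replicate 2 alone, -log10 q of at least 3, removal of the raised bins by median, and either library of 1398P2 left out. In 1398M1 the median rank was 59.9 (50% cover), 57.3 (raised bins), 37.6 (replicate 1) and 46.3 to 52.6 without 1 library. In 1399P1 it was 66.3, 65.9 and 40.5 in that order, 51.3 (replicate 2), 49.6 (equal numbers) and 46.0 to 57.6 without 1 library. Listed genes with a region numbered 0 with 50% cover, 0 without the raised bins, 25 and 9 from replicates 1 and 2 alone, 2 in gene bodies, 9 within 50 kb and 4 to 17 without 1 library. The causes were not tested. The raised bins by median numbered 1927 and held 87.6% of the 518 and 88.8% of all merged regions, so a stricter definition, chosen after seeing the data, was added, with 267 bins holding 52 of the 518 (10.0%) and 16.4% of all. Of the 14 genes with 2 regions, 1 kept 2 with 50% cover, 0 with equal numbers of peaks, 0 without the bins of raised median background, 7 with -log10 q of at least 3 and all 14 without any 1 library. No paired analysis was possible because the results come from no test. Motifs at summits were not run.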
